A study of Homo sapiens with 32 samples.

Results

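The genes described here mark the pigment and the dedifferentiated state of melanoma cells, and the data are the N6-methyladenosine (m6A) peaks that lie in them. They are 10 genes: MITF, SOX10 and PMEL of the pigment state, and AXL, EGFR, NGFR, SOX9, ZEB1, WNT5A and TEAD1 of the dedifferentiated state. A peak was taken where its summit lay within the RefSeq span of one of these genes in hg38, on either strand. This gave 313 of 180114 peaks, found in 8 of the 10 genes. Peaks of the 4 libraries on 1 strand were merged to a locus where they overlapped by 1 bp or more, which gave 112 of 66409 loci.

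The libraries are m6A immunoprecipitations (MeRIP-seq) of RNA kept on chromatin, depleted of ribosomal RNA, in A375, an established line of human melanoma cells. In 2 libraries the cells carried a control hairpin RNA (shControl, genotype labelled WT), and in 2 the hairpin targeted METTL3, which encodes the enzyme that writes most m6A (shMETTL3, labelled METTL3 knockdown). The other samples of the series, which has 32 in 16 groups, were not analysed here. All 4 received the same antibody kit and spike-in, and the labels do not say whether replicates were separate cultures, so their spread may be technical.

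There were 45345 and 47692 peaks in the 2 control libraries and 44108 and 42969 in the knockdown libraries, with 17.1 to 18.2 Mb covered per list. METTL3 itself had 4 loci in both control lists and 4 in both knockdown lists, 3 of them in all 4 lists, and peaks do not give the amount of its RNA. As a check of the cell type, 3 of 10 melanocyte lineage markers had a peak: MITF, PAX3 and EDNRB. The others, SOX10, PMEL, MLANA, TYR, TYRP1, DCT and ERBB3, had none. Markers of keratinocytes had a peak in 3 of 10 genes, and those of fibroblasts, leukocytes and endothelium in 2 of 10 each. Of all 20056 protein-coding genes, 46.5% had no peak, so these counts do not single out the melanocyte lineage. The part of other cell types in the results below was not tested.

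Melanoma cells move between a pigmented, melanocyte-like state and a dedifferentiated, invasive and drug-tolerant state. MITF, a transcription factor of the melanocyte lineage, drives the pigment genes together with SOX10, and PMEL is the structural protein of the melanosome. In the dedifferentiated state MITF and the pigment genes are low. Receptors such as AXL, EGFR and NGFR, the Wnt ligand WNT5A and the transcription factors SOX9, ZEB1 and TEAD1 mark the cells. The m6A mark is laid down on nascent RNA, mostly in long exons and near stop codons, and affects the splicing, decay and translation of the RNA.

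A peak lay at a listed start of 5 of these genes, and the sequences of 4 show where the first peak of any list began. The table of RefSeq promoters (GRCh38.p14) held windows for 5 of the 10 genes, each from 250 bases before a transcription start to 50 bases after it. Of the 16 windows, 6 were touched by a peak on the strand of the gene, wherever its summit lay. The window of the first MITF start (chr3:69739214-69739513, plus strand), that of EGFR (chr7:55018767-55019066, plus strand), that of an inner ZEB1 start (chr10:31318966-31319265, plus strand) and the window of an inner start of WNT5A (chr3:55481349-55481648, minus strand) are shown 5′ to 3′. Capitals mark the bases that lay within a called peak of any list on the strand of the gene. Peaks on the minus strand of ZEB1 are not marked.
MITF: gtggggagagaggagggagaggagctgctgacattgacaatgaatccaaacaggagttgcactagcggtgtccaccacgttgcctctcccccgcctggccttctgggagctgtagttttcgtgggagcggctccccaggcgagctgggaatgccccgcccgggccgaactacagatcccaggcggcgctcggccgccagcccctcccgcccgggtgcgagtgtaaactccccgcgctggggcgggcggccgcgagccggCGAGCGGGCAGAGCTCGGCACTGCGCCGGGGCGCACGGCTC
EGFR: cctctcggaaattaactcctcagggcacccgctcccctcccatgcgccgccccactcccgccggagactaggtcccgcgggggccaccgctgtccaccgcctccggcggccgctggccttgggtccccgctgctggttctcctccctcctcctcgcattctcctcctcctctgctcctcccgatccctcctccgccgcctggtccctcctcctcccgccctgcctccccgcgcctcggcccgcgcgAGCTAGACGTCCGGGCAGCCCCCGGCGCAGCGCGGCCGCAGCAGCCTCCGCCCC
ZEB1: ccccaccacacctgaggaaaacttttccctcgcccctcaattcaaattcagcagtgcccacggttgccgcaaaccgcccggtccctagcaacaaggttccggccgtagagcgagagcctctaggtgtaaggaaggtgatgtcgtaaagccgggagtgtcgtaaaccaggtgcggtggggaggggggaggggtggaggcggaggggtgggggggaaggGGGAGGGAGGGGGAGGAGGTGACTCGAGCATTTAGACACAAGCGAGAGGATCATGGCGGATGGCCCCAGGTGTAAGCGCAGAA
WNT5A: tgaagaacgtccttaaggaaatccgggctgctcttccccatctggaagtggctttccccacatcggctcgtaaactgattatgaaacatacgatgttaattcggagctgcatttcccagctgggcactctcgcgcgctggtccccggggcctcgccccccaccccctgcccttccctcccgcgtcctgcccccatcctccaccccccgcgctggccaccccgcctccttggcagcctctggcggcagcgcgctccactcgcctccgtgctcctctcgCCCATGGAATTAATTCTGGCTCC
The capitals of MITF came from the 2 knockdown lists and those of WNT5A from knockdown replicate 2. For ZEB1 the peaks of all 4 lists reached the window. They began at 31319183 and 31319212 in knockdown replicates 1 and 2, and at 31319260 and 31319257 in control replicates 1 and 2. For EGFR the capitals came from all lists but knockdown replicate 2. Those peaks began at 55019013 in knockdown replicate 1 and at 55019048 and 55019053 in control replicates 1 and 2. In both windows the first capitals thus came from knockdown replicate 1 alone. Both AXL windows were touched as well. That of the first start (chr19:41218973-41219272) overlapped a peak in every list, whose summits were 147 to 162 bp upstream of the gene span and so outside the rule for members. That of an inner start (chr19:41226505-41226804) was touched by a peak of knockdown replicate 1 with a fold enrichment of 3.56. None of the 4 printed windows held GGACT, a common form of the m6A sequence motif, on either strand (its reverse complement is AGTCC). Of all 35116 windows, 44.2% held it on either strand, so these letters are missing from most windows of this length.

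MITF was the pigment gene with peaks, and most of its loci did not separate the groups. Its span (chromosome 3, 69739464 to 69968332) held 5 and 8 peaks in control replicates 1 and 2 and 7 and 9 in knockdown replicates 1 and 2. These peaks covered 2531 and 3329 bp in control and 2687 and 3285 bp in knockdown, so the groups overlapped. Of 11 loci, 4 were in all 4 lists, 1 was in both knockdown lists and neither control list (called knockdown-only here), and 0 were the reverse (called control-only). The other 6 were split within a group.

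The knockdown-only locus of MITF was at its first start. It ran from 69739473 to 69739636, beginning 9 bp after the start, with fold enrichments of 3.07 and 4.99 in knockdown replicates 1 and 2. A fold enrichment is the peak caller's own ratio within a library, so it is set here beside its percentile among the folds of that list, 25.6 and 71.4. Neither value measures a change between lists, which differ in length and were called separately. With folds of at least 4 in every list the locus did not count as knockdown-only, and the number of such loci in MITF was 3 without control replicate 2, 2 without knockdown replicate 1 and 2 with a reciprocal overlap of 50%. Control-only loci numbered 1 without control replicate 1 and 1 without control replicate 2.

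The strongest locus of MITF lay near its 3′ end, from 69964816 to 69965379, with the summit 3368 bp before the gene end. Its folds were 4.62 and 6.91 in control and 6.52 and 5.53 in knockdown, and these ranges overlapped. A shared locus further upstream (69788489 to 69789556) had folds of 5.31 and 3.52 in control and 4.56 and 4.45 in knockdown. Another (69898010 to 69898779) had 3.17 and 2.97 in control and 3.84 and 4.97 in knockdown. The last of the 4 shared loci (69937696 to 69937958) began 1104 bp after the furthest downstream of the 3 listed MITF starts, with folds of 2.57 and 5.04 in control and 4.09 and 2.45 in knockdown. The locus nearest the gene end (69966798 to 69967103) was in control replicate 2 alone, with a fold of 3.03.

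SOX10, the neural crest factor upstream of MITF, and PMEL had no peak in any of the 4 lists on either strand. Their spans are 12.2 and 12.6 kb, longer than that of SOX9 (5.4 kb), which had peaks in every list. The part of gene length was not tested. Of 20056 protein-coding genes, 46.5% had no peak either. A list without a peak in a gene does not tell missing RNA from unmethylated RNA, and in these bulk libraries fewer cells with an RNA and less RNA per cell cannot be told apart. On the plus strand, the peak nearest to SOX10 in control replicate 2 and both knockdown lists was 4.63 to 4.64 kb from its span, within POLR2F, which overlaps SOX10. For PMEL the nearest was 156 to 229 bp away in every list, within the neighbouring gene DGKA on the plus strand.

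**Figure D1:**
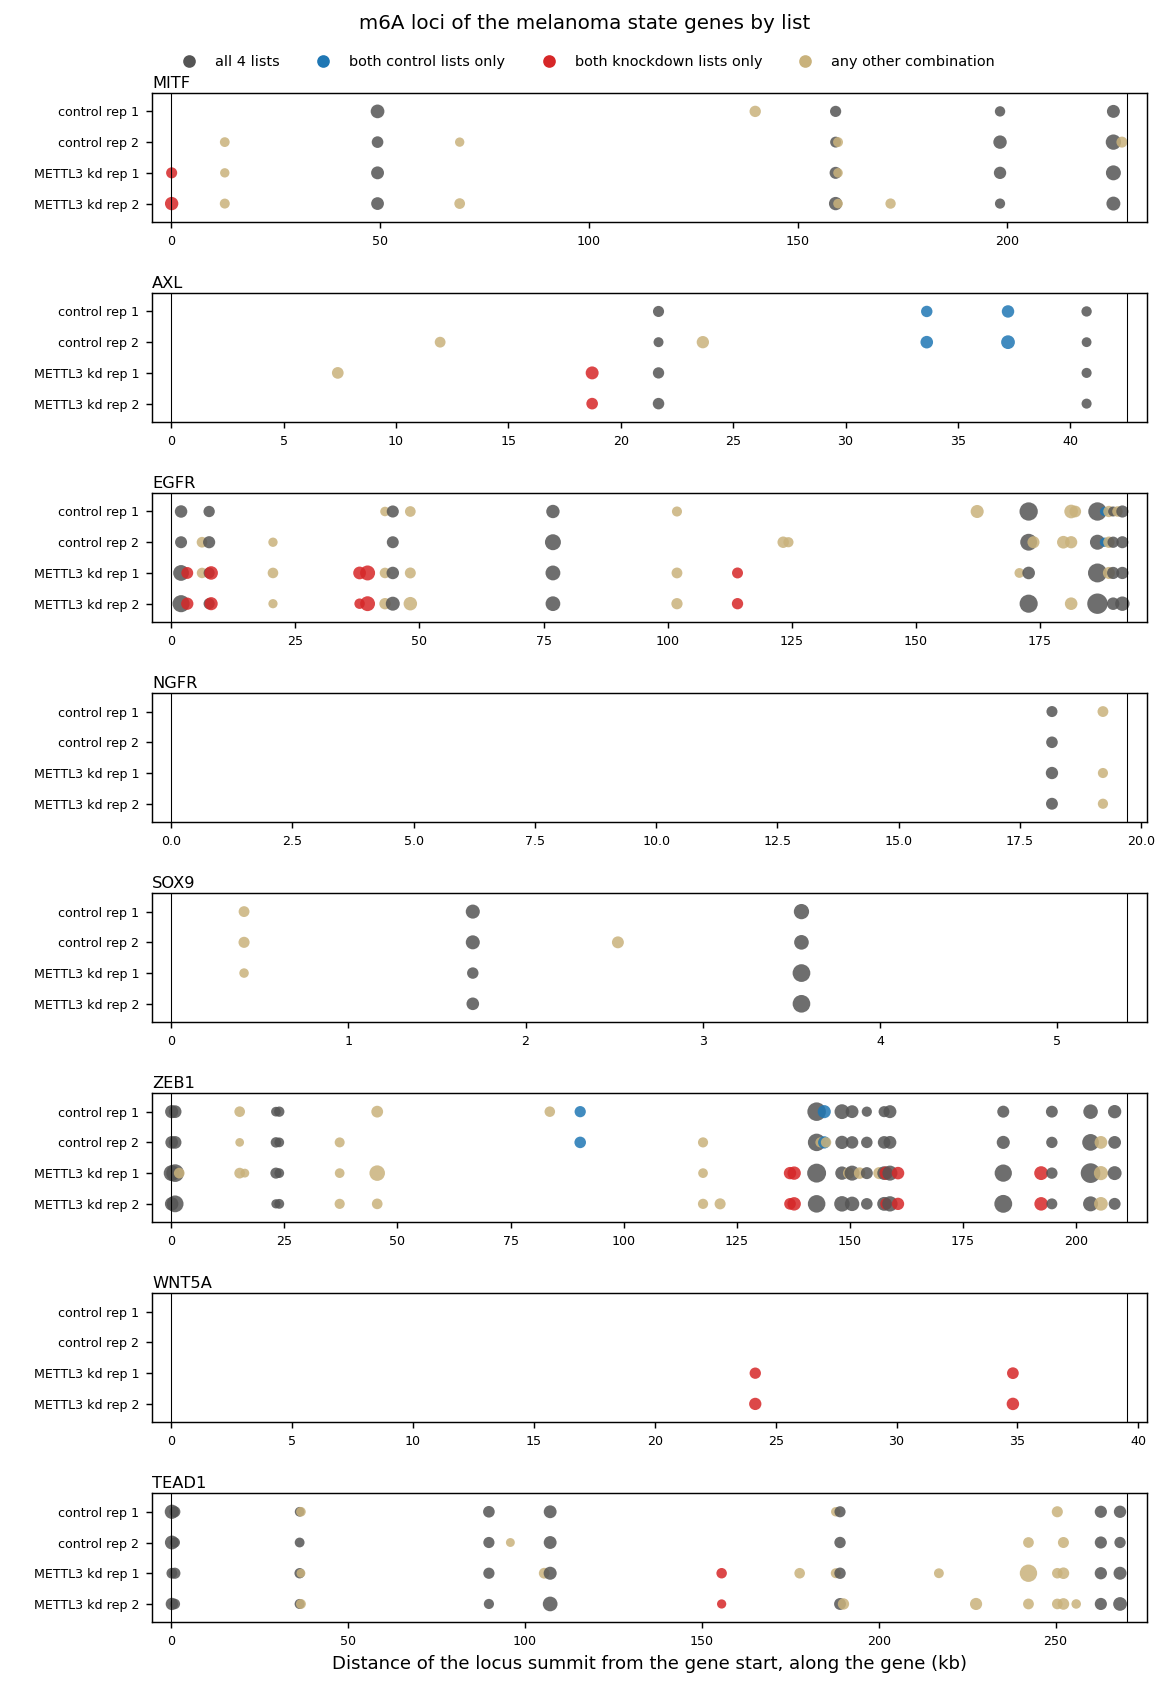
Each panel is a gene with at least 1 peak, and each row a list. The x axis gives the distance in kb of the locus summit (that of its strongest peak) from the gene start, with vertical lines at the gene's start and end; circle size follows the fold enrichment and colour the lists that hold the locus. SOX10 and PMEL had no peak and are not drawn. WNT5A has knockdown circles alone, and AXL has 2 control-only loci.

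Among the receptors, EGFR, the epidermal growth factor receptor, had the most loci. Its span (chromosome 7, 55019017 to 55211628) held 19 and 18 peaks in control and 22 and 21 in knockdown. They covered 7728 and 8233 bp in control and 10698 and 9474 bp in knockdown, so both knockdown libraries were above both control libraries. The mean was 7981 ± 357 bp in control and 10086 ± 865 bp in knockdown (SD, n = 2 each), a ratio of 1.26. Of 29 loci, 8 were in all 4 lists, 5 were knockdown-only and 1 was control-only. Another 4 were in both knockdown lists and 1 control list, and 2 in both control lists and 1 knockdown list. A further 7 were in 1 control list alone, and 1 was in 1 knockdown list alone.

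The first EGFR locus, merged over the lists, covered the gene start and was wider in the knockdown lists. Only the peak of knockdown replicate 1 spanned the start itself. It spanned 55019013 to 55021995 and was covered over 1721 and 1915 bp in control and over 2983 and 2672 bp in knockdown. In knockdown replicate 1 it was a single peak, and in the other lists it was broken into 2 or 3. Its highest folds were 4.21 and 3.81 in control (59.6th and 55th percentiles) and 7.38 and 8.86 in knockdown (92.3rd and 96.7th). The control values lay mid-list and the knockdown values near the top. The summits of these strongest peaks lay downstream of the start, from 55020552 to 55021006. The peak nearest the start had folds of 2.17 and 2.13 in control replicates 1 and 2 and 2.08 in knockdown replicate 2.

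The 5 knockdown-only loci of EGFR were spread over the first 114064 bp of the gene. The strongest (55058438 to 55058693) had folds of 6.56 and 6.44 in knockdown replicates 1 and 2, the 87.9th and 86.9th percentiles. The next (55026971 to 55027251) had folds of 5.15 and 4.76. Those at 55022113 to 55022342 had 3.71 and 4.04, and those at 55056832 to 55057522 had 4.45 and 2.63. The weakest (55132950 to 55133220) had folds of 3.0 and 3.27. The summits of the first 4 of these were 3233 to 39551 bp from the gene start, and that of the weakest was the furthest. The control-only locus (55206862 to 55207164) was near the detection limit, with folds of 1.75 and 1.85 and −log10 q of 4.29 and 6.93.

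The strong loci of EGFR toward its 3′ end were shared. The locus at 55205162 to 55206760 was 1573 to 1596 bp wide in each list, with folds of 10.4 and 6.59 in control and 11.1 and 13.1 in knockdown, all at or above the 92.5th percentile of their list. A narrow locus (55191585 to 55191828) had folds of 10.3 and 8.56 in control, and 4.30 and 10.1 in knockdown replicates 1 and 2. Here the knockdown replicates differed from each other more than the control replicates did. A locus in the interior (55095541 to 55096065) had folds of 4.99 and 7.57 in control and 6.41 and 6.29 in knockdown, and the locus nearest the gene end (55210517 to 55211346) had 3.93, 3.84, 4.02 and 5.98 in the same order. Control-only loci of EGFR numbered 5 without control replicate 1, 4 without control replicate 2, 2 when either knockdown replicate was left out, 2 with a reciprocal overlap of 50%, and 0 with folds of at least 4, with a −log10 q of at least 5 or with lists of equal length. Knockdown-only loci numbered 8 without control replicate 1 and 8 with lists of equal length. The difference in mean covered length (knockdown minus control), 2105.5 bp, was 3900.5 bp with folds of at least 4.

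AXL, a receptor tyrosine kinase of the dedifferentiated state, was covered over a shorter length in the knockdown lists. Its span (chromosome 19, 41219223 to 41261766) held 4 and 6 peaks in control and 4 and 3 in knockdown. They covered 1168 and 1600 bp in control and 1109 and 882 bp in knockdown, with 1168 against 1109 bp as the closest pair of libraries. Of 8 loci, 2 were control-only, 1 was knockdown-only and 2 were in all 4 lists. The control-only loci had folds of 4.17 and 5.34 (41256348 to 41256517) and of 3.34 and 4.29 (41252712 to 41252875). The knockdown-only locus (41237831 to 41238014) had folds of 4.62 and 3.50.

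The peaks at the first AXL start, which the counts above leave out, had folds of 4.28 and 5.14 in control and 6.82 and 5.44 in knockdown. With them the covered length was 1551 and 1978 bp in control and 1528 and 1253 bp in knockdown. The shared loci with summits inside AXL were weak. That at the gene end (41259465 to 41260088) had folds of 2.55, 2.19, 2.37 and 2.35 in control replicates 1 and 2 and knockdown replicates 1 and 2, at or below the 12.7th percentile of each list. The other (41240719 to 41240994) had 3.10, 2.28, 3.26 and 3.42. Without control replicate 1 the control-only loci numbered 4, and without knockdown replicate 2 the knockdown-only loci numbered 2. With folds of at least 4 they numbered 1 and 0, and the covered lengths overlapped (163 and 488 bp in control, 184 and 0 bp in knockdown). The difference in mean covered length (knockdown minus control), -388.5 bp, was -604.5 bp without control replicate 1 and -172.5 bp without control replicate 2.

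NGFR, the low-affinity nerve growth factor receptor and a marker of neural crest-like cells, had 2 loci, both at its 3′ end (chromosome 17, gene span 49495293 to 49515008). The locus at 49513367 to 49513570 was in all 4 lists, with folds of 3.05 and 3.49 in control and 4.07 and 3.73 in knockdown. The other (49514214 to 49514514) had folds of 2.90 in control replicate 1 and 2.39 and 2.45 in knockdown, and no peak in control replicate 2. The covered length, 420 and 151 bp in control and 458 and 487 bp in knockdown, thus rested on that missing peak. With a −log10 q of at least 5, or with lists of equal length, knockdown replicate 1 had 161 bp, the groups overlapped and the difference in means was 38.5 bp instead of 187. It was 321.5 bp without control replicate 1 and 52.5 bp without control replicate 2. Without control replicate 1 the second locus counted as knockdown-only, the 1 such locus in NGFR. Both loci lie in the span of the antisense gene NGFR-AS1, but all peaks were on the plus strand.

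WNT5A, the ligand of non-canonical Wnt signalling, had peaks in the knockdown lists and none in either control list. Its span (chromosome 3, 55465715 to 55505263) held 2 peaks in each knockdown list, which covered 873 and 845 bp. The locus at 55481006 to 55481371 began 27 bp downstream of the inner start whose window is printed above, with folds of 3.28 and 4.04. The other (55469949 to 55470539) had folds of 3.59 and 4.2 and lay 4738 bp before the gene end. Both were of middling rank, from the 31.3rd to the 56.8th percentile, and with folds of at least 4 neither counted as knockdown-only and knockdown replicate 1 had no peak left in the gene.

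Among the transcription factors, ZEB1, a repressor of epithelial genes, had the most loci of all 10 genes. Its span (chromosome 10, 31318417 to 31529804) held 22 and 26 peaks in control and 32 and 25 in knockdown, and these numbers overlapped between groups. The covered length did not overlap, at 7796 and 8678 bp in control and 13134 and 11586 bp in knockdown. The mean was 8237 ± 624 bp in control and 12360 ± 1095 bp in knockdown (SD, n = 2 each), a ratio of 1.5. Of 35 loci, 14 were in all 4 lists, more than in 99.3% of the 10735 protein-coding genes with a peak. That rank is of counts not scaled to gene length, and ZEB1 spans 211 kb. There were 5 knockdown-only and 2 control-only loci. The lengths and the shared loci include a locus on the minus strand, described next. On the gene's strand alone the covered length was 7169 and 8015 bp in control and 11958 and 10460 bp in knockdown.

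The start of ZEB1 had a locus on each strand. On the plus strand, the locus whose first bases are printed above (31319183 to 31319420) had folds of 4.43 and 4.38 in control and 9.56 and 8.53 in knockdown. On the minus strand, that of the divergent antisense gene ZEB1-AS1, a locus from 31317886 to 31319061 had folds of 4.76 and 4.34 in control and 7.50 and 5.11 in knockdown. It was covered over 627 and 663 bp in control and 1176 and 1126 bp in knockdown. On both strands the values of the groups did not overlap, with the knockdown values the higher ones. Of the 85 loci in the 5 genes whose strand is listed, this was the 1 on the strand opposite to its gene.

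Inside ZEB1 the shared loci included the strongest of the gene. A locus at 31460925 to 31461204 had folds of 10.6 and 9.33 in control and 11.1 and 9.40 in knockdown, at or above the 97.6th percentile of each list. A broad locus 8158 bp before the gene end (31520048 to 31521896) was 1 peak in each knockdown list, of 1845 and 1743 bp. In the control lists it was broken into 3 and 4 peaks that covered 1423 and 1269 bp. Its highest folds were 6.09 and 8.42 in control and 12.1 and 6.58 in knockdown, which overlapped. The locus at 31466215 to 31467053 had 6.40 and 4.92 in control and 4.99 and 7.1 in knockdown. The one nearest the gene end (31526697 to 31527201) had 4.96 and 4.44 in control and 5.52 and 3.76 in knockdown.

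The knockdown-only loci of ZEB1 had moderate folds. They were 5.44 and 5.16 at 31510607 to 31510855, 4.99 and 5.06 at 31455912 to 31456212, and 4.92 and 3.63 at 31476352 to 31476545. The other two had folds of 4.27 and 4.09 (31478973 to 31479201) and 4.12 and 3.53 (31454960 to 31455843). The control-only loci had folds of 4.74 and 4.09 (31462566 to 31462900) and 3.20 and 3.45 (31408777 to 31409127). Both kinds thus lay among the shared loci of the gene, as the map of loci by list shows. Knockdown-only loci numbered 9 without control replicate 2, 11 without knockdown replicate 2 and 3 with folds of at least 4, and control-only loci 4 without control replicate 1 and 1 with folds of at least 4.

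TEAD1, the DNA-binding partner of the YAP and TAZ coactivators, had the largest ratio of covered length among the genes with peaks in both groups. Its span (chromosome 11, 12674421 to 12944737) held 13 and 13 peaks in control and 17 and 16 in knockdown. They covered 3293 and 3535 bp in control and 6090 and 6293 bp in knockdown. The mean was 3414 ± 171 bp in control and 6192 ± 144 bp in knockdown (SD, n = 2 each), a ratio of 1.81. Of 21 loci, 8 were in all 4 lists, 1 was knockdown-only and 0 were control-only. A further 4 were in both knockdown lists and 1 control list, and 6 were in 1 knockdown list alone.

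Part of this length came from loci that were present in all lists but wider in knockdown. The locus at 12780814 to 12781806 was 1 peak of 985 and 923 bp in the knockdown lists and 2 peaks in each control list, which covered 447 and 486 bp. Its folds were 4.53 and 4.55 in control and 4.70 and 6.28 in knockdown. The locus near the gene end (12942168 to 12942943) was 399 and 453 bp wide in control and 649 and 776 bp in knockdown, with folds of 4.08 and 3.26 and of 4.63 and 5.30. The locus at 12936975 to 12937524 was alike in fold in all lists, at 3.96 and 3.93 in control and 4.04 and 3.93 in knockdown.

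The start of TEAD1 showed the opposite order of folds to that of ZEB1. Its first locus (12674450 to 12674757) had folds of 5.81 and 5.47 in control, the 84.7th and 84.4th percentiles, and of 2.86 and 4.09 in knockdown, the 19.8th and 53.6th. The knockdown-only locus (12829871 to 12830137), which also lies in the span of the lncRNA gene LOC107984313, was weak, with folds of 2.64 and 1.81. Knockdown-only loci of TEAD1 numbered 3 when either control replicate was left out, 4 when either knockdown replicate was, 4 with a reciprocal overlap of 50% and 0 with folds of at least 4. The difference in mean covered length (knockdown minus control), 2777.5 bp, was 1599 bp with folds of at least 4. Control-only loci numbered 1 without control replicate 1 and 4 with the reciprocal overlap, where wide and narrow peaks no longer counted as shared.

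SOX9, a factor of neural crest and cartilage, was the shortest gene (5.4 kb; chromosome 17, 72121020 to 72126416) and the one with the most peaks per length, 5.56 per 10 kb in the mean list against 0.253 to 1.24 in the other 7 genes with peaks. It held 3 and 4 peaks in control and 3 and 2 in knockdown, over 1410 and 1425 bp in control and 1372 and 996 bp in knockdown. Its strongest locus (72123921 to 72124848, 1839 bp before the gene end) had folds of 6.84 and 6.2 in control and 9.61 and 9.51 in knockdown. The locus at 72122607 to 72122823 had the reverse order, 5.64 and 5.60 in control and 3.37 and 4.32 in knockdown. At the gene start (72121260 to 72121688) the folds were 2.91 and 3.11 in control and 1.98 in knockdown replicate 1, with no peak in knockdown replicate 2. SOX9 had 0 control-only and 0 knockdown-only loci. This start locus counted as control-only without knockdown replicate 1, with a −log10 q of at least 5 and with lists of equal length, and 1 locus did without control replicate 1. Under the stricter q or equal length the knockdown lists covered 943 and 996 bp. The difference in mean covered length (knockdown minus control), -233.5 bp, was -448 bp under both, -421.5 bp without knockdown replicate 1 and -45.5 bp without knockdown replicate 2. With folds of at least 4 the groups overlapped (994 and 1086 bp in control, 768 and 996 bp in knockdown).

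**Figure D2:**
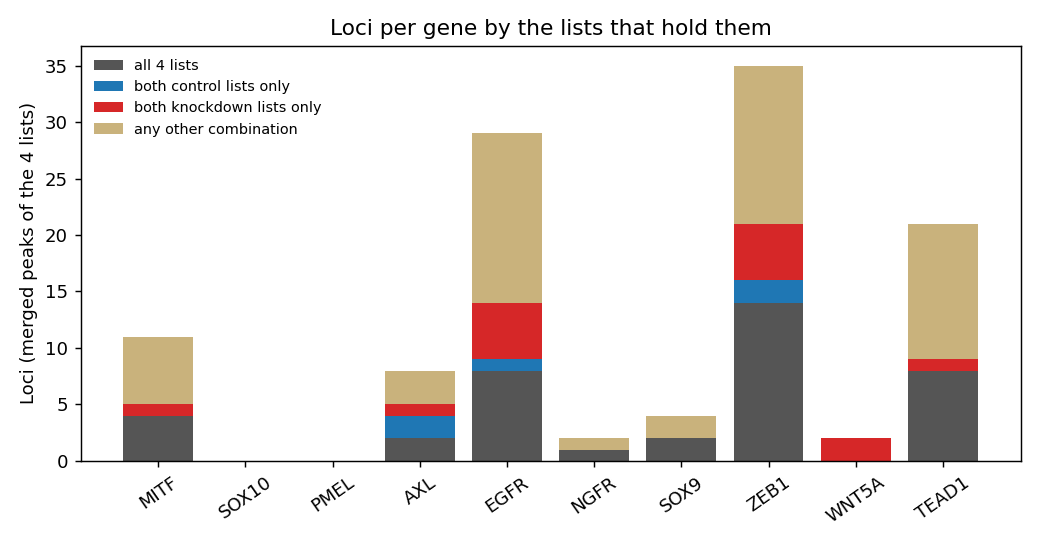
Bars give the number of loci per gene (y axis), stacked by the lists that hold them. ZEB1, EGFR and TEAD1 hold 85 of the 112 loci, and SOX10 and PMEL have none.

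Over the 10 genes, knockdown lists held more peaks and covered more sequence. The genes held 68 and 76 peaks in control and 89 and 80 in knockdown, a mean of 72.0 ± 5.66 against 84.5 ± 6.36 (SD, n = 2 each; exact two-sided permutation p = 0.333, which is the lowest value possible with 2 libraries a group). The covered length was 24346 and 26951 bp in control and 36421 and 33848 bp in knockdown, a ratio of means of 1.37 (exact permutation p = 0.333). The whole lists had the other order in number. Peaks of the whole lists were wider in knockdown, with medians of 267 and 268 bp against 256 and 259 bp in control, and the part of this in the covered length was not tested. EGFR, ZEB1 and TEAD1 gave 9006 of the 9486 bp by which the means differed. Without these 3 genes the lengths were 5529 and 6505 bp in control and 6499 and 6495 bp in knockdown, which overlapped.

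The covered length of single genes did not overlap between the groups in 7 of the 8 genes with peaks. It was higher in both knockdown lists in 5 (EGFR, NGFR, ZEB1, WNT5A and TEAD1) and higher in both control lists in 2 (AXL and SOX9). For NGFR the groups overlapped under the stricter q and with lists of equal length, and with folds of at least 4 they overlapped for AXL, NGFR, SOX9 and WNT5A, while EGFR, ZEB1 and TEAD1 kept their order under these alternatives. Among all 10735 protein-coding genes with a peak, 34.9% were higher in both knockdown lists and 33.5% in both control lists. Genes with at least 10 loci, as MITF, EGFR, ZEB1 and TEAD1 are, divided differently, with 32.4% higher in knockdown and 45.5% in control. The number of peaks was higher in both knockdown lists in 3 genes (EGFR, WNT5A and TEAD1), against 19.4% of the genes with a peak, and higher in both control lists in 0, against 24.4%. Among genes with at least 10 loci those shares were 22.2% and 41.1%. Genes of the same libraries are not independent, and with 8 genes these counts are a description.

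**Figure D3:**
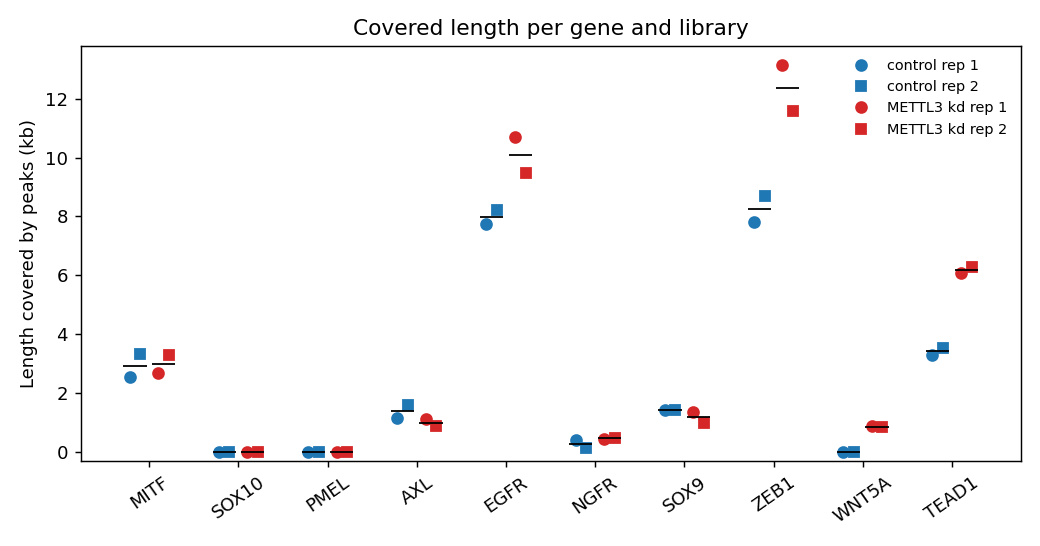
Points give the length in kb covered by peaks of each library (y axis) in each of the 10 genes (x axis), and black lines the mean of the 2 libraries of a group. ZEB1, EGFR and TEAD1 lie higher in both knockdown libraries (red) than in both control libraries (blue), and the MITF libraries overlap.

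Few loci of these genes were control-only. Of 48 loci in both control lists, 5 (10.4%) had no peak in either knockdown list, against 22.6% of all 36660 such loci. Of 69 loci in both knockdown lists, 15 (21.7%) had no peak in either control list, close to the 18.9% of all 33195. Of all 112 loci, 39 (34.8%) were in all 4 lists, against 35.7% of all loci, and 31 (27.7%) were in 1 list only, against 26.5%. EGFR and ZEB1 held 10 of the 15 knockdown-only loci. The control-only number was 16 without control replicate 1, 10 without control replicate 2 and 8 without knockdown replicate 1. The knockdown-only number was 25 without control replicate 2 and 27 without knockdown replicate 2. A class defined on 3 lists is met more easily, in all loci too.

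Loci that were missing from a single list fell mostly on the control side. There were 15 loci in both knockdown lists and 1 control list (13.4%, against 4.85% of all loci), of which EGFR, ZEB1 and TEAD1 had 4 each and MITF 2. There were 4 in both control lists and 1 knockdown list (3.57%, against 7.03%). Loci of 1 gene share its RNA and are not replicates, so no test was made of these shares.

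The member peaks had a lower median fold than all peaks in each list, and a median width near that of all peaks. Their median fold was 3.50 and 3.6 in control and 3.59 and 3.74 in knockdown, against 3.84, 3.65, 3.92 and 3.93 for all peaks of the same lists. Their median width was 272 and 257 bp in control and 279 and 278 bp in knockdown. Peaks of at least 1000 bp numbered 2 and 3 in control (2.94% and 3.95% of member peaks) and 5 and 5 in knockdown (5.62% and 6.25%). The share of all peaks that were this wide was 5.0% and 5.2% in control and 6.01% and 6.09% in knockdown. Placed by the summit of the strongest peak, most loci, 102 of 112, lay in gene interiors, 4 within 500 bp of a gene start and 6 within 2000 bp of a gene end. The EGFR locus that covers the gene start thus counted as interior, with its summit 1982 bp from that start. Among 39860 loci of all protein-coding genes with a known strand, 83.9% were in interiors, 4.76% at starts and 11.3% at ends.

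**Figure D4:**
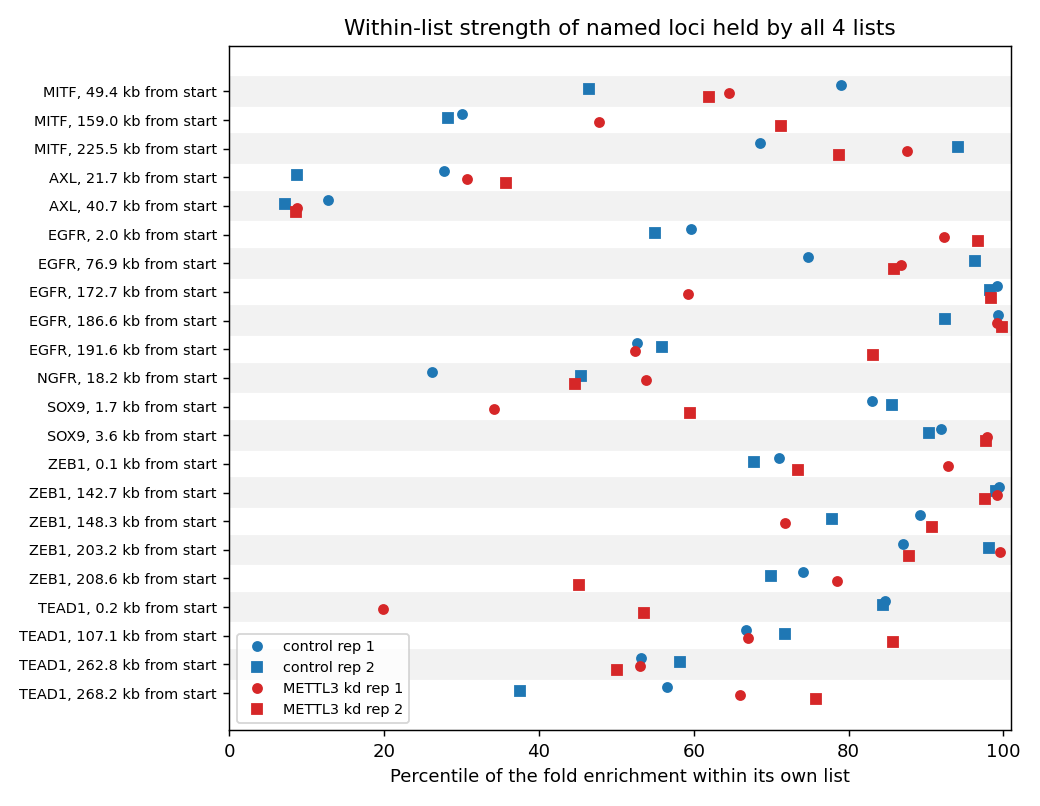
Rows are named loci held by all 4 lists, with the distance of the summit from the gene start. The x axis gives the percentile of the locus's highest fold enrichment within its own list, as 1 point per library. The broad EGFR locus, 186567 bp from the start, the ZEB1 locus 142672 bp from the start and the SOX9 locus 3557 bp from the start lie above the 90th percentile in every list. At the first locus, EGFR has its knockdown points and TEAD1 its control points furthest right.

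Wider lists of state genes, which include the 10, gave mixed counts. Of 35 pigment state genes, 14 had a peak, with 88 loci. Of their 45 loci in both control lists, 12 (26.7%) were control-only, and of 34 in both knockdown lists, 10 (29.4%) were knockdown-only, beside the 22.6% and 18.9% of all loci. Covered length was higher in both knockdown lists in 2 of the 14 genes with a peak and in both control lists in 6, beside 34.9% and 33.5% of all genes with a peak. MLPH, which links melanosomes to the motor protein encoded by MYO5A, had 6 control-only and 0 knockdown-only loci, while MYO5A had 0 and 4. PPARGC1A, a coactivator of mitochondrial genes and a target of MITF, had 1 and 4, and LEF1, a Wnt effector, 0 and 1. GPNMB, a glycoprotein related to PMEL, and ZEB2, a factor related to ZEB1, had 2 and 0 each, and MC1R, the melanocortin receptor, 1 and 0. Of the 10 melanocyte lineage markers, SOX10, PMEL, MLANA, TYR, TYRP1, DCT and ERBB3 had no peak.

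Of 50 dedifferentiated state genes, 42 had a peak, with 443 loci. Of 265 loci in both control lists, 83 (31.3%) were control-only, and of 238 in both knockdown lists, 51 (21.4%) were knockdown-only. Over all loci these shares were 22.6% and 18.9%. The control-only share was thus above that of all loci, unlike the 10.4% of the 10 genes. The matrix genes TNC, FN1, LOXL2 and THBS1 held 23, 13, 8 and 7 of the control-only loci. Among those with knockdown-only loci, AMOTL2, a target and regulator of YAP, had 5, ROR1, a receptor for WNT5A, 4, and SLIT2, a guidance ligand, and SMAD3, a mediator of TGF-beta signalling, 3 each. In the same list without the 7 genes described above, the shares were 35.3% and 21%. Covered length was higher in both knockdown lists in 21 of the 42 genes with a peak and higher in both control lists in 13, beside the same 34.9% and 33.5%. These lists were drawn up with earlier results of these data known.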

How the data were processed

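The data are 4 lists of m6A peaks, 1 per immunoprecipitated library. Tools in the submitters' processing notes are MACS2 2.2.7.1, HISAT2 2.1.0, Bowtie2 2.4.2, Trim Galore 0.6.6 and SAMtools, with hg38 as the build, and their roles are not stated. The sources used here do not say how inputs and spike-in were used. The authors called peaks for each library and strand separately, as the names in the deposited files show; those of the knockdown lists begin with ko where the labels have knockdown. The deposited fold enrichment is a ratio at the summit, and the deposited p-value and q-value are −log10 values, with q of at least 2.00. The score that the authors deposited was left unused, and the deposited summit offset placed each peak.

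Peaks were merged to loci (at least 1 bp shared on 1 strand) and placed by summit in RefSeq spans of GRCh38.p14, the build that hg38 names. Gene strand came from the promoter table and, for NGFR, SOX9 and TEAD1, from at least 80% of at least 2 loci. A list's fold and percentile at a locus are those of its strongest peak. The check for repeated libraries found 0.382% to 0.401% of peaks with equal coordinates in the control lists and 0.231% to 0.237% in the knockdown lists. Merging was tested on simulated data. Values per library were set against each other by exact permutation, with no test over loci or genes, and percentages of the background count all loci or genes. Read depth behind the lists is unknown, so no interval is given.

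The 10 genes, the gene lists and the tests were chosen with earlier results of these data known. Named loci of each gene were the control-only and knockdown-only ones, up to 3 in all 4 lists with the highest value of their lowest percentile, and those nearest the gene's start and end. Other shared loci at starts are named after their values were seen. Of other list genes, up to 4 with the most control-only and 4 with the most knockdown-only loci were named. Sequence outside the promoter windows was not used here. Alternatives were stricter −log10 q (5) and fold (4), equal list length, gene strand, any overlap, reciprocal overlap of 50%, and leaving out each library. Python 3.11.15 and pandas 2.3.3 were used.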

Additional observations from a re-analysis of the deposited data

How the results depend on the processing

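The difference between knockdown and control in peaks per library of the 10 genes was 12.5 and kept its sign under the alternatives run, from 8 to 17 with 1 library left out and from 10 (folds of at least 4) to 16.5 (lists of equal length) otherwise. The difference in covered length, added after seeing the data, was 9486 bp and stayed between 8183.5 and 10788.5 bp. The replicate block, which takes differences within a replicate number, also gave 12.5 peaks (21 in replicate 1 and 4 in replicate 2; exact sign-flip permutation p = 0.5, the smallest it allows). The numbers need not pair the libraries, since the differences between replicates 1 and 2 correlated at r = 0.0334 between groups (across 10735 genes, which are not independent replicates).

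With folds of at least 4 the 10 genes had 2 control-only, 7 knockdown-only and 13 shared loci, instead of 5, 15 and 39; the pigment list had 6 and 5 instead of 12 and 10, and the dedifferentiated list 31 and 27 instead of 83 and 51. Reciprocal overlap gave 11 control-only loci in the 10 genes. With 1 library left out, the 10 genes had 6 to 16 control-only, 20 to 27 knockdown-only and 41 to 47 shared loci. The pigment list had 17 to 20 and 10 to 17, and the dedifferentiated list 91 to 117 and 65 to 78. The control-only share of the 10 genes was below that of all loci under each of the 10 alternatives (22% against 28.2% with reciprocal overlap, 11.1% against 25.0% with folds of at least 4). Their knockdown-only share was above that of all loci except with folds of at least 4 (26.9% against 27.6%), and was 26.0% against 25.8% without knockdown replicate 1. The cause was not tested. Depth is unknown, and a missing peak can be one just below the calling threshold.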
